A study of Mus musculus with 4 samples.

Results

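CD8 T cells were described here in single-cell RNA profiles of 4T1 tumours, a mouse mammary carcinoma. They were selected as barcodes with at least 2 unique molecular identifiers (UMIs, each standing for 1 captured RNA molecule) of the CD3 chains Cd3d and Cd3g, at least 1 UMI of the CD8 chains Cd8a and Cd8b1, no UMI of Cd4 or Foxp3, and less than 0.2% of their UMIs from the keratins Krt8 and Krt18. Only barcodes with 300 or more detected genes and at most 15% mitochondrial UMIs were considered. The rule found 274 CD8 T cells among 32133 such cells (0.853%, 95% exact binomial interval 0.755 to 0.959).

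All mice were BALB/c females aged 6 to 8 weeks that carried a flank tumour grown from 1000000 implanted 4T1 cells. They were injected intravenously on day 7 and the tumours were taken on day 13 and sorted for CD45. In between, on day 8, day 9 and day 10, near-infrared light of 980 nm was applied for 5 min at a power of 1.0 W per cm2. The light was given to the PBS mice as well. Of the 4 samples, 2 were labelled as injected with PBS and 1 with TIOs, which are frozen macrophages loaded with photosensitiser-bearing upconverting nanoparticles and a ferroptosis inducer so that light drives lipid peroxidation. The title of the other sample named PBS and its protocol named TIOs, so it was left without a group.

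The cells lay in 1 pooled matrix whose barcodes carried 4 suffixes, taken here as libraries 1 to 4, and no label tied a suffix to a sample. PBS and TIOs were therefore not compared, the treatment of each library is unknown, and no test between conditions was possible. All intervals below are 95% intervals that cover counting error only, and since the UMIs of 1 cell are not independent of each other they understate the error of a level. Fold changes between cell types were computed within library 1, and for some genes the shares of cells in libraries 2 to 4 are given as well, from 25 CD8 T cells.

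CD8 T cells recognise peptides on MHC class I through the T cell receptor and the CD8 coreceptor. On activation they secrete interferon-gamma and kill target cells by releasing perforin, which opens membranes, and granzymes, the proteases that enter through them. In tumours, CD8 T cells under lasting antigen exposure are known to carry inhibitory receptors such as PD-1 (Pdcd1) and the transcription factor Tox, whereas naive and memory-like cells keep Tcf7, Lef1 and the egress receptor S1pr1.

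Library 1 stood apart from the others. It held 108646352 UMIs over 8111 barcodes, compared with 81369540 over 8902 barcodes in library 2, 69255999 over 6902 in library 3 and 96493208 over 9149 in library 4. The kept cells had a median of 11698 UMIs in library 1, 2641.5 in library 2, 2695 in library 3 and 7182 in library 4. Although the cells had been sorted for CD45, 52.2% of the kept cells of library 1 exceeded the keratin limit, against 1.66% in library 2, none of 6783 in library 3 and 0.0112% in library 4. The CD8 T cells themselves were of more even depth, with medians of 4758, 5883, 4021 and 4178 UMIs and 1820, 2007, 1784 and 1825 genes in libraries 1 to 4. Of 32963 distinct barcode sequences, 101 occurred in more than 1 library, and 3 CD8 T cells, all of library 1, carried such a barcode.

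Nearly all CD8 T cells came from library 1. It held 249 of them, 3.17% of its kept cells (2.80 to 3.59), whereas library 2 held 5 (0.0580%, 0.0188 to 0.135), library 3 held 9 (0.133%, 0.0607 to 0.252) and library 4 held 11 (0.124%, 0.0618 to 0.221). Among all cells with the same CD3 and keratin limits, called gated T cells, CD8 T cells made up 60.7% of 410 in library 1 (55.8 to 65.5). The corresponding shares were 5.05% of 99 in library 2 (1.66 to 11.4), 2.13% of 423 in library 3 (0.977 to 4.00) and 5.37% of 205 in library 4 (2.71 to 9.40). The interval of library 1 did not overlap any of the others, and those of libraries 2, 3 and 4 overlapped each other.

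The balance against the other T cells went the same way. For each CD4+ T cell without Foxp3 RNA there were 8.89 CD8 T cells in library 1, 0.116 in library 2, 0.0500 in library 3 and 0.104 in library 4. Library 1 held 28 such CD4+ cells, 32 regulatory T cells (Foxp3 RNA present) and 94 gated T cells with RNA of none of Cd4, Cd8a, Cd8b1 and Foxp3. Per natural killer (NK) cell, defined by Ncr1 RNA without Cd3d or Cd3g, there were 3.83 CD8 T cells in library 1, 0.455 in library 2, 0.310 in library 3 and 0.0775 in library 4. When each gated T cell was first thinned at random to 1000 UMIs, so that depth was equal, the CD8 share of gated T cells was 50.9% in library 1 (45.9 to 55.9), 3.03% in library 2, 1.20% in library 3 and 3.47% in library 4.

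**Figure D1:**
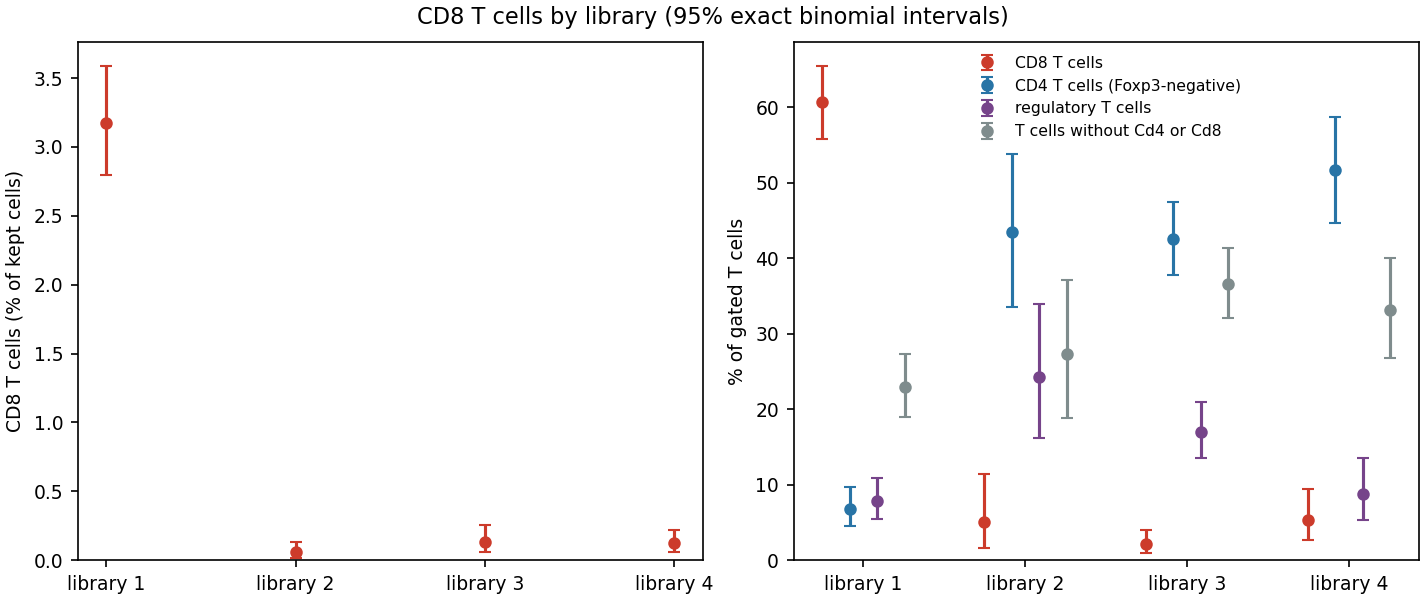
Share of CD8 T cells among kept cells (left, %) and shares of 4 T cell classes among gated T cells (right, %) in libraries 1 to 4, whose treatment is unknown. Points are shares and bars 95% exact binomial intervals, and the CD8 share was 60.7% of gated T cells in library 1 against 5.05%, 2.13% and 5.37% in libraries 2, 3 and 4.

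The genes of the rule are given only as a description, because they chose the cells. In library 1 the CD8 T cells held 2 to 49 UMIs of Cd3d and Cd3g (median 15) and 1 to 52 of Cd8a and Cd8b1 (median 9). Both CD8 chains were seen in 225 of the 249 cells, Cd8a alone in 14 and Cd8b1 alone in 10. In libraries 2, 3 and 4 the median CD3 UMIs were 7, 6 and 5, and the median CD8 UMIs were 3 in each. Just inside the limit, all 6 cells with 2 CD3 UMIs held RNA of a T cell receptor alpha or beta constant gene, compared with 41.7% of the 12 cells with 1 CD3 UMI and 12.8% of the 179 with none. The keratin limit removed 29 cells with 0.2% or more, all of library 1 and with a median of 23486 UMIs, and kept 20 with 0.1 to 0.2%, also all of library 1. A further 16 cells failed only through RNA of Cd4 or Foxp3.

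RNA of the alpha-beta receptor, which accompanies the CD3 genes of the rule and does not set CD8 apart from other T cells, was present throughout. All 249 CD8 T cells of library 1 held RNA of Trac, Trbc1 or Trbc2, the constant genes of the alpha and beta chains, and 198 held both Trbc1 and Trbc2, which are near-identical copies, so the assignment between them is uncertain. Trac alone was found in 204 of the 249 cells and in 1 of 65 NK cells, whereas Trbc1 was found in 208 and in 48 of the 65 NK cells. Gamma-chain RNA was frequent beside it. Tcrg-C2, a constant gene of the T cell receptor gamma chain at chr13:19304649-19307551 (mm10, minus strand), was found in 88 of 249 cells (35.3%, 29.4 to 41.6), of which 80 also held Trac and all 88 held Trac, Trbc1 or Trbc2. Trgv2, a gamma variable gene, was found in 44 cells, 41 of them with Tcrg-C2, whereas the delta constant gene Trdc was found in 2. The gamma constant genes resemble each other closely, so the name of the gene is less certain than the presence of gamma-chain RNA. No CD4+ cell of library 1 and none of the 25 CD8 T cells of libraries 2 to 4 held a Tcrg-C2 UMI, but other gamma constant RNA was present in both. Tcrg-C4 was found in 31 CD8 T cells of library 1 (12.4%), in 3 of the 25 elsewhere (12%) and in 2 of the 28 CD4+ cells (7.14%), and Tcrg-C1 in 11 of the 249 CD8 T cells and 1 CD4+ cell.

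Variable genes of the alpha and beta chains were rarely read, though the gamma variable gene Trgv2 was found in 44 cells. The chemistry captures the 3′ end of the RNA and variable segments lie at the 5′ end, but the cause was not tested. An alpha variable gene was seen in 19 of the 249 cells, spread over 13 genes with Trav12-1 in 4 cells, and a beta variable gene in 19 cells over 10 genes, with Trbv19 and Trbv2 in 5 cells each. So few reads do not show whether clones were expanded.

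Levels in library 1 are given as CPM, which scales a gene's summed UMIs in a cell type to 1000000 UMIs of that type. The 249 CD8 T cells summed to 1598403 UMIs, the 28 CD4+ cells to 100441 and the 65 NK cells to 423588, so that 1 UMI was worth 9.96 CPM in CD4+ cells and 2.36 CPM in NK cells. A gene was called 2-fold different after adding 10 CPM to both levels, among genes with 20 or more UMIs over both types. Where a type held no UMI, the ratio was taken against 3 UMIs and is a lower bound.

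Against CD4+ T cells, the CD8 T cells of library 1 stood out by the killing machinery, interferon-gamma and chemokines. The inhibitory receptor genes Pdcd1 and Klrc1 and receptors shared with NK cells were also higher. Other T cell classes came nearer as lists. Cytokine and chemokine genes summed to 4869 CPM in CD8 T cells, 4799 in regulatory T cells and 2479 in T cells with neither Cd4 nor Cd8 RNA. Cytotoxic genes summed to 6723, 5443 and 19424 CPM in the same order. Of 7299 genes, 1044 were at least 2-fold higher in CD8 T cells (14.3%) and 399 lower (5.47%). The counts were 100 and 97 with 50 CPM added, and 536 and 255 without cells holding gamma or delta constant UMIs. The depth of the CD4+ cells limited these counts, because 648 of the 1044 had no CD4+ UMI and only 16 of these were 2-fold higher against 3 UMIs. The whole interval of the ratio lay beyond 2-fold for 38 genes higher (0.521%) and 67 lower (0.918%), and calls over the whole interval are named as such below. The median log2 difference of all genes was 0.06. RNA of other lineages differed as well. The neutrophil list stood at 1201 CPM in CD8 T cells against 368 in CD4+ cells. Of its members, 4 of 4 tested were 2-fold higher and 1 over its whole interval, but Csf3r and Retnlg had no CD4+ UMI. The macrophage list was at 1458 against 597 CPM (5 of 7 tested 2-fold higher), with no CD4+ UMI of Cd68 or Csf1r. The fibroblast and endothelial list was at 574 against 259 CPM (3 of 4), with no CD4+ UMI of Dcn. In that list 1 CD8 T cell held 77.2% of the CD8 T cell UMIs, so the higher level rested on that cell. The dendritic list was at 2366 against 1354 CPM (1 of 4). Outside the neutrophil list, none of these members was higher over the whole interval. The tumour and epithelial list was at 211 against 229 CPM and the B cell list at 26.3 against 59.7 CPM. The part of this RNA in the calls was not tested, beyond the neutrophil levels given beside single genes.

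Of 20 cytotoxic genes, 18 were tested, 14 were 2-fold higher, none lower, and 9 were higher over their whole interval. Among these 9, Gzma, Gzmc, Gzmd and Gzmf rested on few CD8 T cells. Single cells held 191 of 393, 89 of 217, 76 of 172 and 322 of 710 of their UMIs. The intervals do not cover this unevenness between cells. Only 12 of the 20 had a CD4+ UMI, and tested genes without one were called higher by construction. The median log2 difference of the 18 was 2.29. Nkg7, a protein of cytotoxic granules, reached 2136 CPM in CD8 T cells and 79.6 CPM in CD4+ cells, a 26.8-fold difference (13.6 to 62.2), and was present in 247 of 249 CD8 T cells and 4 of 28 CD4+ cells. After thinning, it was seen in 84.6% of CD8 T cells, 3.57% of CD4+ cells and 0.510% of 392 neutrophils, which served as the level of free RNA. Perforin (Prf1) had 291 CPM and no CD4+ UMI, at least 9.74-fold higher, and Gzmb, the granzyme best known for inducing apoptosis, had 387 CPM and was 5.55-fold higher (2.68 to 13.9). Ctsw, a protease of cytotoxic cells, was 4.24-fold higher (2.29 to 8.87).

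Among 12 cytokine and chemokine genes, 9 were tested, 5 were higher and 2 lower, each over the whole interval. Interferon-gamma (Ifng) had 809 CPM in CD8 T cells and 49.8 in CD4+ cells, a 16.3-fold difference (6.95 to 50.1), and was seen in 74.3% of CD8 T cells, or 38.5% after thinning (32.4 to 44.8). Xcl1, the chemokine that attracts cross-presenting dendritic cells, had 313 CPM with no CD4+ UMI, at least 10.5-fold higher, and Ccl5 was 2.87-fold higher (2.1 to 4.03). Ccl4 (1498 CPM) and Ccl3 (441 CPM) were also higher than in CD4+ cells, but neutrophils held 1949 and 1267 CPM, and the part of free RNA in both levels was not tested. The 2 lower genes were Csf2 and Lta, with 20 and 20.6 CPM in CD8 T cells and 149 and 129 CPM in CD4+ cells, and all CD4+ Csf2 UMIs lay in 1 cell.

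Of 13 inhibitory receptor genes, 11 were tested, 8 were 2-fold higher, 1 lower, and 2 higher over the whole interval. Only 8 of the 13 had a CD4+ UMI, and tested genes without one were called higher by construction. Pdcd1 (chr1:94038305-94052553, mm10, minus strand) encodes PD-1 and had 580 CPM in CD8 T cells and 39.8 CPM in CD4+ cells, 14.6-fold higher (5.67 to 53.6). It was found in 201 of 249 CD8 T cells (80.7%), and in 43.7% after thinning (37.4 to 50.2), against none of 28 CD4+ cells and 0.255% of neutrophils. Klrc1, which encodes the inhibitory receptor NKG2A, had 232 CPM with no CD4+ UMI, at least 7.77-fold higher. Lag3 had 174 CPM and was 2.91-fold higher (1.32 to 8.00), whereas Ctla4 had 285 CPM in CD8 T cells and 548 in CD4+ cells.

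Of 12 NK receptor genes, 6 were tested, all 6 were at least 2-fold higher and 4 were higher over the whole interval. Klrd1, the CD94 chain that pairs with NKG2 receptors, had 616 CPM and was 20.6-fold higher (7.04 to 100.2, on 3 CD4+ UMIs). Klrk1, which encodes the activating receptor NKG2D, had 339 CPM and was 8.51-fold higher (3.31 to 31.4), and Klrc2 had 141 CPM with no CD4+ UMI. The adaptor Fcer1g was also higher, but at 296 CPM it lay far below the 3048 CPM of neutrophils, as Tyrobp did at 241 against 2721 CPM. Klrd1, Klrc1 and Klrk1 were found in 87.6%, 67.9% and 77.1% of the CD8 T cells, that is, in most of them. Of the 6 NK cell genes, Ncr1, which defined NK cells here, had 1 UMI in 1 of the 249 cells, Eomes was found in 10 cells and Gzma in 10, and Klrb1c, Klra8 and Klra4 were at 0. Klra8 was at 0 in the NK cells too and Klra4 had 2 UMIs there, whereas Klrb1c was found in 15 of 65 NK cells. The list summed to 255 CPM in CD8 T cells, of which Gzma made up 246, and to 4821 CPM in NK cells.

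**Figure D2:**
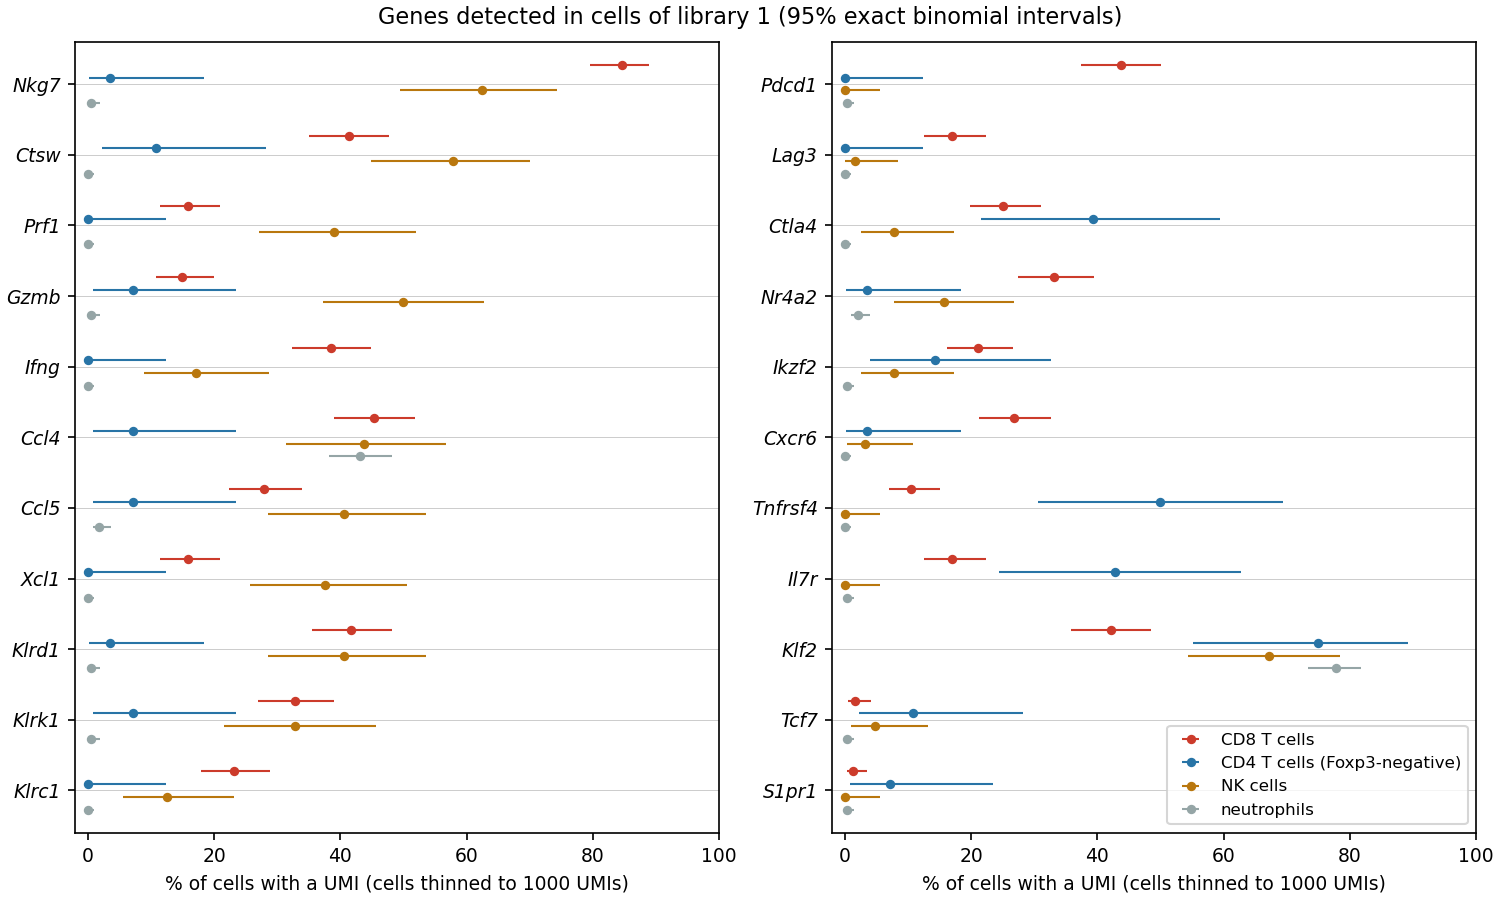
Share of cells with a UMI (%) for 22 genes in CD8 T cells, CD4+ T cells, NK cells and neutrophils of library 1, each cell thinned to 1000 UMIs. Points are shares and bars 95% exact binomial intervals, and Pdcd1 was seen in 43.7% of CD8 T cells and in no thinned CD4+ or NK cell.

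The naive, memory and stem-like list lay on the other side. Of 16 genes, 12 were tested, 2 were 2-fold higher and 7 lower, 5 of them over the whole interval, and the median log2 difference was -1.33. S1pr1 had 5.00 CPM in CD8 T cells and 149 CPM in CD4+ cells, 29.8-fold lower (11.9 to 81.3). Tcf7 (chr11:52252371-52283014, mm10, minus strand), the factor of naive and stem-like T cells, had 11.3 CPM against 109.5, 9.72-fold lower (4.15 to 21.7), and was found in 11 of 249 CD8 T cells. Klf2, which keeps T cells in circulation, was 3.46-fold lower (3.03 to 3.94) and Slamf6 17.2-fold lower (7.25 to 41.3). The interleukin-7 receptor gene Il7r had 181 CPM against 458 but was still found in 52.2% of CD8 T cells.

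Of 13 activation and costimulation genes, 12 were tested, 2 were higher and 5 lower, and the 3 lower over the whole interval were the costimulatory receptors Tnfrsf4 (OX40, 122 against 946 CPM, 7.75-fold), Tnfrsf18 (GITR, 4.33-fold) and Icos (4.03-fold). Cd69, an early activation marker, had 657 against 1155 CPM, and Tnfrsf9 (4-1BB) 340 against 627 CPM, both within 2-fold. Among 18 effector and exhaustion transcription factors, 16 were tested, 4 were higher and 3 lower, 2 and 1 of them over the whole interval. The stress- and antigen-induced receptor Nr4a2 had 404 against 29.9 CPM (13.5-fold, 4.61 to 65.8), Irf8 was 8.36-fold higher (2.84 to 40.7) and Maf 10.6-fold lower (5.89 to 18.8), whereas Tox had 136 against 69.7 CPM and its interval of the ratio, 0.934 to 4.92, included 1.

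Homing genes were divided. Of 15, 11 were tested, 4 were higher and 5 lower, and Itgb7 (9.31-fold) and Cxcr4 (10.3-fold) were lower over the whole interval, while Cxcr6, a receptor of tissue-resident T cells, had 326 against 119.5 CPM. The residency integrin Itgae was found in 3.21% of CD8 T cells. All 18 cell cycle genes were tested, 4 were higher and none lower, and 1 was higher over its whole interval, namely Mki67, 8.89-fold higher (2.44 to 73.8, on 2 CD4+ UMIs). Top2a, at 292 against 149 CPM, did not pass 2-fold. Of 16 interferon-stimulated genes, all were tested, 1 was higher and 5 lower, and Ifit1 (4.62-fold) and Ifi27l2a (3.56-fold) were lower over the whole interval.

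Of 14 receptor and signalling genes, all were tested, 1 was higher and 2 lower, and only Cd5, an inhibitor of receptor signalling, was lower over its whole interval (6.23-fold). Of 10 immediate-early genes, 2 were 2-fold lower and none passed over its whole interval, and none of the 8 heat shock genes passed 2-fold. Of 15 helper and regulatory T cell genes, 6 were tested, none was higher and 4 were lower, 3 of them over the whole interval, among them Gata3 (6.55-fold) and the type 2 cytokine Il13, whose 22 CD4+ UMIs lay in 4 cells against 2 UMIs in CD8 T cells.

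Ranked by the size of the difference, the 10 genes furthest above CD4+ cells were Gzmf, Xcl1, Prf1, Klrc1, Nkg7, Plac8, Tcrg-C2, Ccl4, Klrd1 and Klrc2. Gzmf led with 710 UMIs in 26 CD8 T cells and none in CD4+ cells, at least 14.9-fold higher. Its lead rested on 1 cell with 322 UMIs. Without that cell Gzmf was at 245 CPM, below Xcl1 (313 CPM) and Prf1 (291 CPM). The 10 furthest below were Il22, Il13, Izumo1r, Tbc1d4, Penk, S1pr1, Krt83, Ramp3, Slamf6 and Slfn1. Il22 rested on 31 UMIs in 3 CD4+ cells, and Izumo1r, the folate receptor 4 of regulatory and anergic CD4+ cells, on 21 UMIs in 7 CD4+ cells against 8 UMIs in CD8 T cells.

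Against NK cells, the CD8 T cells of library 1 were set apart by the T cell receptor, PD-1 and other inhibitory receptors, while NK cells held far more granzyme RNA. Of 7859 genes, 325 were at least 2-fold higher in CD8 T cells (4.14%) and 239 lower (3.04%), with 115 (1.46%) and 121 (1.54%) beyond 2-fold over the whole interval. Of the 325, 64 had no NK UMI, and 49 of these were 2-fold higher against 3 UMIs. The median log2 difference of all genes was 0.01. Lists of other lineages lay on both sides, with the neutrophil list at 1201 CPM in CD8 T cells against 803 in NK cells, the tumour and epithelial list at 211 against 156, the macrophage list at 1458 against 2080, the fibroblast and endothelial list at 574 against 621 and the dendritic list at 2366 against 5236. Of the fibroblast and endothelial UMIs of CD8 T cells, 77.2% lay in 1 cell, so the 574 CPM was not spread over the cells. Over the whole interval Retnlg was higher and Cd74, Dcn and Pecam1 were lower. The part of these lists in the calls was not tested. The rule asked for CD3 RNA in one type and its absence in the other, so differences in CD3-linked genes such as Cd3e, with 703 CPM and no NK UMI, follow the gates.

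Of 11 inhibitory receptor genes tested, 7 were higher and 1 lower, 6 and 1 of them over the whole interval. Pdcd1 was 40.9-fold higher (18.7 to 112), its 6 NK UMIs lying in 1 cell. Ctla4 was 7.54-fold higher (4.59 to 13.3), Lag3 4.91-fold (2.93 to 8.89) and Entpd1, the ectoenzyme CD39, 9.28-fold (3.09 to 45.7), whereas Cd244a was 3.53-fold lower (2.05 to 6.06). Of 17 transcription factors tested, 4 were higher and 2 lower, all over the whole interval. Tox was 28.9-fold higher (7.90 to 240, on 2 NK UMIs), Ikzf2 4.66-fold (3.09 to 7.35) and Irf4 17-fold on 1 NK UMI, while Eomes was 13.5-fold lower (7.33 to 26.4).

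Of 18 cytotoxic genes tested, only Gzmf was higher, against 49 NK UMIs of which 47 lay in 1 cell, and 8 were lower, all over the whole interval. Among these 8, Gzmd and Gzme rested on few NK cells, with up to 265 UMIs of Gzmd and 97 of Gzme in 1 cell. The intervals do not cover this unevenness between cells. Prf1 was 2.82-fold lower (2.44 to 3.24), Gzmb 5.59-fold lower (5.05 to 6.20) and the granzyme inhibitors Serpinb9 and Serpinb6b 5.73-fold and 5.86-fold lower. Nkg7, at 2136 against 1237 CPM, and Ctsw, at 422 against 583 CPM, stayed within 2-fold. Ifng was 3.20-fold higher (2.63 to 3.94), Ccl5 was within 2-fold and Xcl1 3.41-fold lower (3.00 to 3.88), so that the cytokine RNAs did not share 1 direction.

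Of 12 NK receptor genes, 7 were tested, none was higher and 3 were lower, all over the whole interval. These were Klrb1c (NK1.1, at least 34.0-fold lower) and the signalling adaptors Tyrobp (7.47-fold) and Fcer1g (3.66-fold). Klrk1 had 339 against 335 CPM and Klrd1 616 against 335 CPM, both within 2-fold. Of 18 cell cycle genes, 8 were higher, 4 of them over the whole interval, and none lower, with Mki67 3.75-fold higher (2.38 to 6.23) and Ube2c 8.81-fold higher (5.10 to 16.7). The homing receptor Cxcr6 was 19.7-fold higher (9.51 to 49.3) and Ccr2 8.54-fold lower (5.88 to 12.6). Among naive and memory genes, Il7r was 12.8-fold higher (5.81 to 35.2).

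Beyond the lists, Nrn1, a neuritin also made by exhausted and anergic T cells, was at least 22.2-fold higher than in NK cells, and Themis, a receptor-signalling factor of T cells, at least 14.4-fold. Of list members, Cd6 was at least 19.0-fold and Tnfrsf4 at least 17.2-fold higher. The genes furthest below NK cells included Gzmc (57.3-fold lower, 49.9 to 66.0) and Gzma (16.8-fold). Others among them, such as Mmp3, Mmp10, Crabp1 and Krt1, rested on few NK cells, with all 84 NK UMIs of Krt1 in 1 cell.

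**Figure D3:**
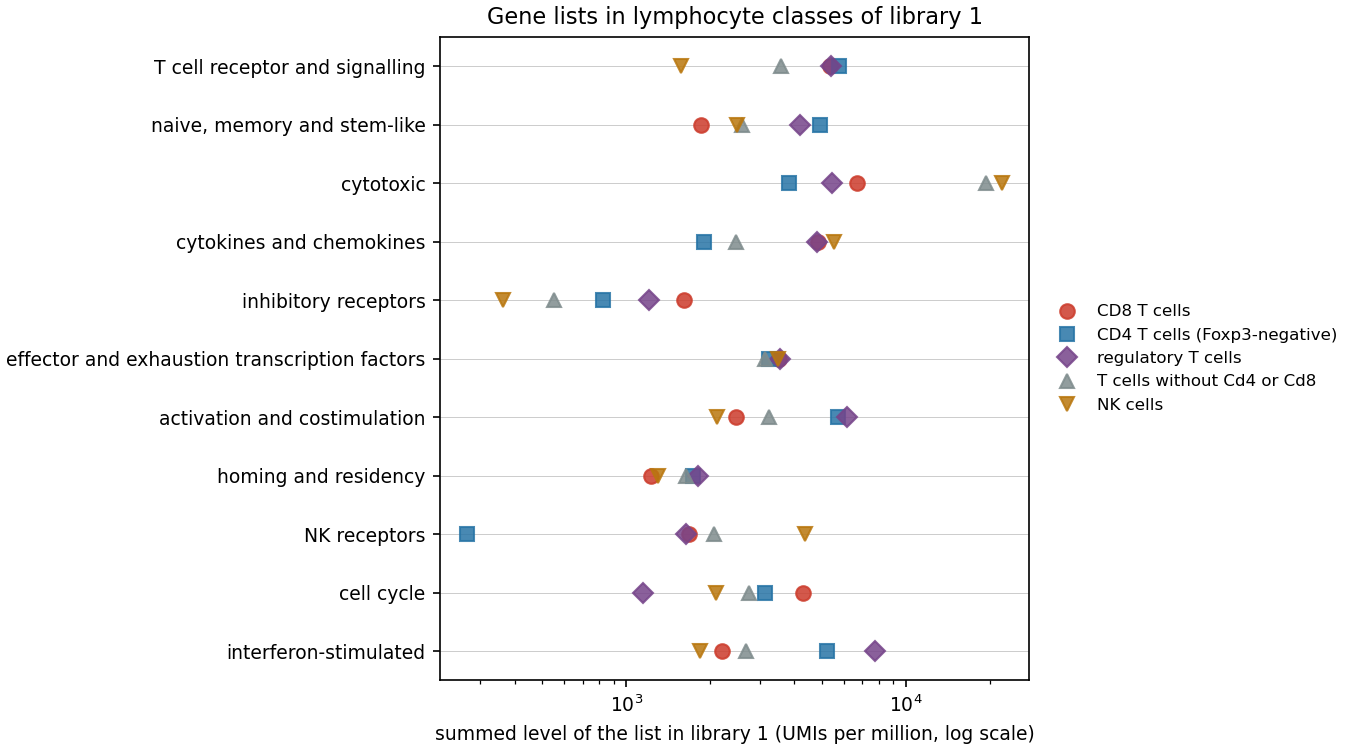
Summed level of 11 gene lists in CD8 T cells and 4 other lymphocyte classes of library 1, in CPM on a log scale. The inhibitory receptor list was at 1605 CPM in CD8 T cells, above the other classes, and the cytotoxic list at 6723 CPM in CD8 T cells, below NK cells (22222 CPM) and T cells with neither Cd4 nor Cd8 RNA (19424 CPM).

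The granzyme RNAs of CD8 T cells are given apart because they were held by a minority of cells and differed from those of NK cells gene by gene. Gzmb, Gzmc, Gzmd, Gzme, Gzmf and Gzmg lie side by side on the minus strand within 145 kb of chromosome 14 (chr14:56117626-56262260, mm10), and Gzma lies apart on chromosome 13. In library 1, 144 of 249 CD8 T cells held no granzyme UMI, 59 held 1 granzyme gene and 46 held more than 1. Any granzyme was thus seen in 42.2% of CD8 T cells (36.0 to 48.6) and in 81.5% of NK cells (70.0 to 90.1), without thinning.

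Gzmb was found in 73 CD8 T cells, with a median of 4 UMIs per positive cell and up to 80. Gzmf was found in 26 cells, with a median of 3.5 UMIs, but 1 cell with 322 UMIs held 45.4% of them all. Gzmc was found in 23 cells, where 1 cell with 89 UMIs held 41.0%, and Gzma in 10 cells, where 1 cell with 191 held 48.6%. The summed levels of these genes therefore depended on single cells. Gzmf had 444 CPM in CD8 T cells and 116 in NK cells, while Gzmc had 136 against 7776 CPM, Gzmd 108 against 1421 and Gzma 246 against 4136. Without their highest CD8 T cell Gzmf was at 245 CPM and Gzma at 128 CPM. Of the 49 Gzmf UMIs of NK cells, 47 lay in 1 cell. The Gzmd level of NK cells also rested on few cells, which held 265, 162 and 140 UMIs, while no other held more than 13.

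Gzmb was more frequent in Gzmf-positive CD8 T cells than in the others. After thinning, 8 of 16 Gzmf-positive CD8 T cells held Gzmb (50%, 24.7 to 75.3) against 12.6% of the others (8.57 to 17.5). Gzmb-positive cells also held Ccl4 more often, at 70.3% (53.0 to 84.1) against 41.0% (34.2 to 47.9). Over all UMIs these intervals overlapped, at 80.8% (69.9 to 89.1) against 69.3% (61.9 to 76.0). Cells with Mki67 held Top2a in 35.0% (15.4 to 59.2) against 7.49% (4.42 to 11.7). Ccl4 was found in 24.3% of thinned cells with Tcrg-C2 (11.8 to 41.2) against 49.0% of the others (42.1 to 56.0), but over all UMIs in 72.7% of both. With Gzmb and Gzmf counted in both orders, these were the 5 of 144 ordered gene pairs whose intervals did not overlap. For Pdcd1 and Gzmb the intervals overlapped, with Gzmb seen in 17.6% of thinned cells with Pdcd1 (10.9 to 26.1) and 12.9% of those without (7.86 to 19.7).

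**Figure D4:**
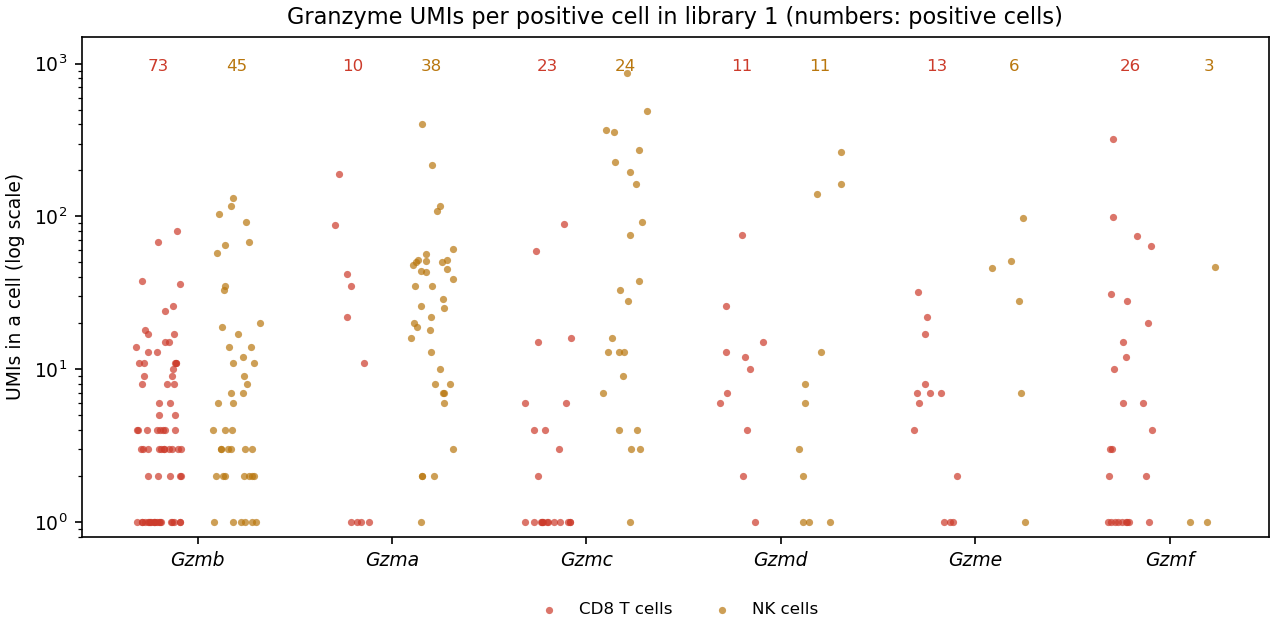
UMIs per cell (log scale) of 6 granzyme genes in the CD8 T cells and NK cells of library 1 that held at least 1 UMI of the gene; numbers above the points count these cells. Gzmf was found in 26 CD8 T cells and 3 NK cells, and Gzmc in 23 and 24 with up to 89 UMIs in a CD8 T cell.

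The transcripts of these genes are alike, which bears on how reads are assigned. Gzmd, Gzme, Gzmf and Gzmg shared 87.6% to 94.8% of aligned bases over their longest coding transcripts, and Gzmc shared 76.1% to 77.1% with them. Values of single members of this cluster are therefore uncertain where a read could fit more than 1 gene. The promoters of Gzmb, Gzmc and Gzmf are shown because Gzmf was the cytotoxic gene higher in CD8 T cells than in NK cells whereas Gzmc and Gzmb were lower. Each runs from 250 bases before to 50 bases after the RefSeq start (GRCm38.p6, minus strand) at chr14:56262285-56262584 for Gzmb, chr14:56234608-56234907 for Gzmc and chr14:56211358-56211657 for Gzmf. Capitals mark 3 motifs searched on both strands, none of which overlapped another. They were the RUNX core TGTGGT, which reads ACCACA on the opposite strand, the cyclic-AMP response element TGACGTCA, and the site of the AP-1 factors, TGANTCA.
Gzmb: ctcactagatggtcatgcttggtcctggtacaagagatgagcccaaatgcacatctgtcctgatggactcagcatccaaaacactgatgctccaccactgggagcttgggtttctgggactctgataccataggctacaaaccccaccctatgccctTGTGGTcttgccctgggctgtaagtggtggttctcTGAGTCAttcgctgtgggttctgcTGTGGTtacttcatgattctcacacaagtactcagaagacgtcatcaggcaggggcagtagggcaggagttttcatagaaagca
Gzmc: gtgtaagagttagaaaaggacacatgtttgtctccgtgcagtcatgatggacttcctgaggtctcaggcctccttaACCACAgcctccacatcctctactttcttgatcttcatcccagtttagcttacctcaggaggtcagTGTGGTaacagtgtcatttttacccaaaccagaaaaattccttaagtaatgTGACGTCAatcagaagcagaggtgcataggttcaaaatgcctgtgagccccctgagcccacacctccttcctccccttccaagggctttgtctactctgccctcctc
Gzmf: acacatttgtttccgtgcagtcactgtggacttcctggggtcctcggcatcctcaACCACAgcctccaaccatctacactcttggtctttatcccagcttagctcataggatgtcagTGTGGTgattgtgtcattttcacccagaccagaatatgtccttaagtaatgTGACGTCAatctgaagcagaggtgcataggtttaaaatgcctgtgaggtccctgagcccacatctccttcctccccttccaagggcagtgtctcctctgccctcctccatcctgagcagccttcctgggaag

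The Gzmc and Gzmf promoters shared 239 of 275 aligned bases (86.9%). Each of the 3 promoters held 2 RUNX cores. At least 1 was found in 16.8% of 32851 mouse promoters of the same length and at least 2 in 1.81%. The cyclic-AMP element was found once in Gzmc and once in Gzmf and in 1.79% of all promoters, and the AP-1 site once in Gzmb and in 7.81% of all. The motifs were picked after the sequences had been read, and a match shows only that these letters are present.

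The 25 CD8 T cells outside library 1 were too few for the planned comparison, which required 20 CD8 T cells in a library, and are therefore given by their counts. Their CD8 identity was also less secure. A single CD8 UMI met the rule in 1 of 5, 3 of 9 and 5 of 11 cells of libraries 2, 3 and 4, against 2 of 249 in library 1. How far the shares below depend on such cells was not tested. Tcf7 was found in 3 of 5 cells of library 2, 6 of 9 of library 3 and 7 of 11 of library 4. Together this was 16 of 25 (64.0%, 42.5 to 82.0) against 11 of 249 in library 1 (4.42%). After thinning the shares were 20% (6.83 to 40.7) and 1.62%, and the 329 CD4+ cells of libraries 2 to 4 stood at 20.8% (16.5 to 25.6). Lef1 was at 20% and S1pr1 at 20% in these 25 cells after thinning, compared with 1.21% each in library 1.

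Pdcd1 was the reverse. It was found in 1 of 5, 1 of 9 and 2 of 11 CD8 T cells of libraries 2, 3 and 4, and 10 of its 17 UMIs lay in 1 cell of library 3. After thinning, 4.00% of the 25 cells held it (0.101 to 20.4), against 43.7% in library 1 and 4.28% of the CD4+ cells of libraries 2 to 4. Klrd1 was at 8.00% against 41.7% and Ifng at 12% (2.55 to 31.2) against 38.5%. Nkg7 was at 44.0% (24.4 to 65.1), below the 84.6% of library 1 and above the 11.0% of CD4+ cells (7.83 to 14.9). Gzmb lay the other way, at 36.0% (18 to 57.5) against 15.0% in library 1 (10.8 to 20.1), and at 38.9% against 15.2% without cells that held many stromal or myeloid UMIs or had high doublet scores, and Ccl5 was at 36.0% against 27.9%. For both genes the intervals overlapped.

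**Figure D5:**
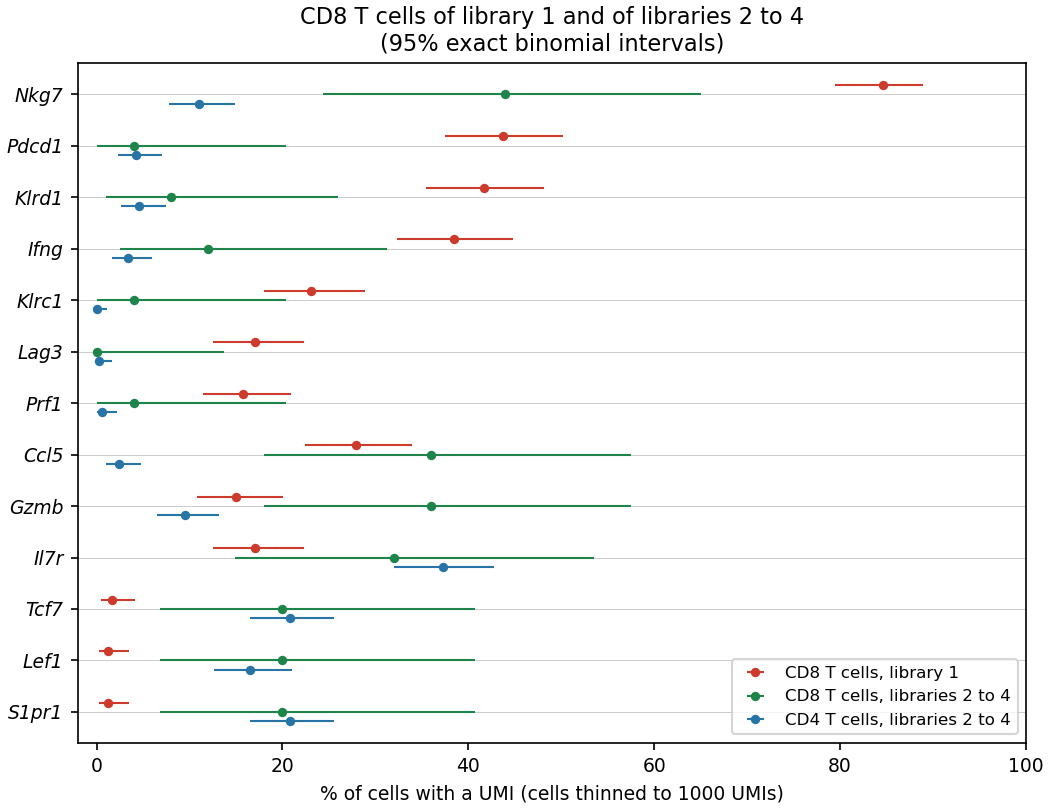
Share of cells with a UMI (%) for 13 genes in CD8 T cells of library 1, CD8 T cells of libraries 2 to 4 together (25 cells) and CD4+ T cells of libraries 2 to 4, each cell thinned to 1000 UMIs. Points are shares and bars 95% exact binomial intervals, and Tcf7 stood at 1.62%, 20% and 20.8% in the 3 sets.

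RNA of other cell types was present in the CD8 T cells and differed between libraries. In library 1 the 5 neutrophil genes summed to 1201 CPM (S100a9 738 CPM), the 8 macrophage genes to 1458 CPM (Lyz2 477 CPM), the 6 tumour and epithelial genes to 211 CPM and the 6 fibroblast and endothelial genes to 574 CPM. All 5 neutrophil and all 8 macrophage genes were found, and 8 cells held 100 or more myeloid UMIs. The dendritic cell list summed to 2366 CPM, led by Cd74 at 1431 CPM, while its defining genes Xcr1, Clec9a, Cd209a and Siglech were at 0. The B cell list summed to 26.3 CPM with Cd79a, Ms4a1 and Jchain at 0. In the few cells of the other libraries the neutrophil list summed to 505 CPM in library 2, 2672 in library 3 and 410.3 in library 4, and the macrophage list to 142, 152 and 4129 CPM. The helper and regulatory T cell list stood at 543 CPM in library 1, 1294 in library 2, 789 in library 3 and 130.2 in library 4, and its leading gene in library 2, Il13, had all 24 UMIs in 1 of the 5 cells. The fibroblast and endothelial list reached 14598 CPM in library 2, 1154 in library 3 and 5438 in library 4. The highest CD8 T cell held 77.2% of these stromal UMIs in library 1, 94.7% in library 2, 28.9% in library 3 and 54.4% in library 4.

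The shares were therefore also taken without cells that held 100 or more stromal or myeloid UMIs or lay in the highest 5% of doublet scores of their library, which left 232 of 249 cells in library 1 and 18 of 25 elsewhere. Pdcd1 was then found in 45.2% of thinned CD8 T cells of library 1 (38.7 to 51.9) and 5.56% of those of libraries 2 to 4 (0.141 to 27.3). Tcf7 was found in 1.74% (0.476 to 4.39) and 27.8% (9.69 to 53.5), and Nkg7 in 87.0% and 55.6%. The part of free or foreign RNA in the remaining values was not tested. Since no library could be tied to a treatment, the contrast between library 1 and the others cannot be told apart from differences between animals, sorting or library preparation.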

How the data were processed

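Cells from 4T1 tumours sorted for CD45 were profiled with the 10x Genomics single cell 3′ chemistry, version 2. The authors deposited 1 matrix of 55450 genes and 33064 barcodes, whose values are UMI counts (whole numbers, not normalized, 355765099 in all). Cell Ranger versions differed between sources (3.0.2 in the extract protocol, 2.1.1 in the submitters' processing notes, 6.1.2 in the matrix header), and the build was mm10. Per the labels, a filter of 300 genes and 15% mitochondrial counts left 15603 cells, whereas the same filter left 32133 of the 33064 barcodes here. The matrix pools the samples, so it was treated as 1 sample and no p-value was computed.

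Members and gene lists were chosen with earlier results of these data known. Counts were summed per cell type within a library, and ratios were given exact conditional intervals, levels exact Poisson intervals and shares exact (Clopper-Pearson) intervals. A fold of 2 was called after adding 10 CPM, among genes with 20 or more UMIs over both types, in libraries with 20 or more cells of both, which only library 1 met. Cells were thinned once to 1000 UMIs with a fixed seed, leaving out shallower cells, and neutrophils (Csf3r RNA, 10 or more UMIs of S100a8 and S100a9, no CD3 RNA) gave the level of free RNA. Named genes were list members, the 10 largest differences each way per comparison without the genes of the rule, and the most frequent receptor variable genes. Doublets were kept, and Scrublet (scanpy 1.11.5) scores were used only to mark the highest 5% of each library, since its automatic calls were 0.0116% of kept cells in library 2 and 0 in library 3. Positions came from GENCODE annotation and promoters from RefSeq. Python 3.11.15, scipy 1.17.1, pandas 2.3.3 and Biopython 1.88 were used, and the scripts were tested on simulated data.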

Additional observations from a re-analysis of the deposited data

How the results depend on the processing

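The number of CD8 T cells and their share followed library 1. Leaving out 1 library at a time gave 25 to 269 cells, 0.103% to 1.14% of kept cells and 3.44% to 37.1% of gated T cells, the lowest without library 1. The share of gated T cells, 24.1%, became 14.3% with 1 CD3 UMI, 26.9% with 3, and 19.6% when T cells were thinned before the gate. Against CD4+ cells, the genes higher and lower (1044 and 399) became 100 and 97 with 50 CPM added, 488 and 180 at 50 UMIs, 129 and 78 when libraries with 10 cells of both types had to agree, 38 and 67 when the whole interval had to pass, and 536 and 255 without cells holding gamma or delta constant UMIs. The lower genes alone became 726 with 1 CPM added and 716 with no UMI minimum. Against NK cells, 325 and 239 became 732 and 448 with 1 CPM added, 77 and 65 with 50 CPM, 208 and 130 at 50 UMIs, 27 and 51 when libraries with 10 cells had to agree, and 115 and 121 for whole intervals, and the lower genes became 360 when each cell's CPM was averaged. Without library 1 neither comparison gave a value. The thinned Pdcd1 share over all CD8 T cells, 40.1%, became 56.4% at 2000 UMIs, 74.8% without thinning, 18.4% for 2 or more UMIs and 4.00% to 41.8% when 1 library was left out. The causes were not tested beyond the fewer cells or genes that these settings leave. Of 76 other values, 12 gene counts without library 2, 3 or 4 could not move because they used library 1 alone, and 64 moved by less than their spread or by less than 1.5 times. The interval calls, the gamma-delta setting, thinning before the gate and the shares without mixed cells were added after the data had been seen. Depth was limited by the 28 CD4+ cells of library 1 (100441 UMIs) and by the few CD8 T cells of the other libraries. No paired analysis was possible because no barcode could be tied to a labelled sample.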
